A study of Homo sapiens with 6 samples.

Results

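The genes described here are 10 members of the YAP and TEAD system, the transcriptional end of the Hippo pathway: the coactivators YAP1 and WWTR1, the DNA-binding factors TEAD1 and TEAD4, the targets CYR61, CTGF and ANKRD1, and the inhibitors AMOTL1, AMOTL2 and LATS2. They were taken by symbol from a table of 58735 genes, where CYR61 and CTGF stand under their older symbols (now CCN1 and CCN2). Each of the 10 was found once, and all 10 had enough reads to be tested among 15400 genes. The study was designed to see what raised BARD1 does to pathways of tumour angiogenesis. BARD1 pairs with BRCA1, and together they act as a ubiquitin ligase.

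RNA was sequenced from human high grade serous ovarian carcinoma cells in 2 groups of 3 libraries, all labelled stable cells at 48 h. The BARD1-expressing group carries a BARD1 reading frame delivered by lentivirus, whose product is described as a GFP fusion, and the other group is labelled control, with no vector named for it. BARD1-expressing cells therefore differ from control cells by the transduction as well as by BARD1, and these cannot be told apart here. Titles name the line OVCAR8ip1, whereas the cell line and tissue fields name SKOV3ip1 and its tumors, so the groups are called control and BARD1-expressing cells below. Replicates are labelled biological, without saying whether they are separate cultures or transductions, so p-values measure only the spread between these libraries, which may be technical.

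In the Hippo pathway, a cascade of kinases ending in LATS1 and LATS2 phosphorylates YAP1 and WWTR1 (TAZ) and keeps them out of the nucleus. When the cascade is low, for instance in spread or stiffly anchored cells, the coactivators enter the nucleus and bind TEAD factors, which recognise the sequence GGAATG, and raise genes such as CCN1, CCN2 and ANKRD1. AMOTL2 and LATS2 restrain YAP1 and are themselves known targets, which makes them part of a negative feedback. YAP1 activity is controlled largely by phosphorylation and location, which RNA counts do not measure.

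Of the 10 genes, 5 were higher in BARD1-expressing cells, 1 was lower and 4 did not pass (quasi-likelihood F test of edgeR, adjusted p under 0.05 by Benjamini-Hochberg over all tested genes). ANKRD1 rose 2.47-fold, LATS2 1.57-fold, TEAD1 1.36-fold, AMOTL2 1.32-fold, and TEAD4 rose by 20.3%. CYR61 was 0.910 times its control level, a call lost in 7 of 11 alternative analyses, and YAP1, WWTR1, CTGF and AMOTL1 did not pass. Over all tested genes 29.0% were called, 16.5% higher and 12.4% lower. Among the 7437 tested protein-coding genes whose mean reached 20 CPM (counts scaled to a common library total of 1e6), a level that each of the 10 exceeds and that was chosen after the levels were seen, 34.1% were called. The median log2 fold change was 0.22 over the 10 genes and -0.0027 over all tested genes. The groups did not overlap at 7 of the 10 genes, against 40.9% of all tested genes.

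**Figure D1:**
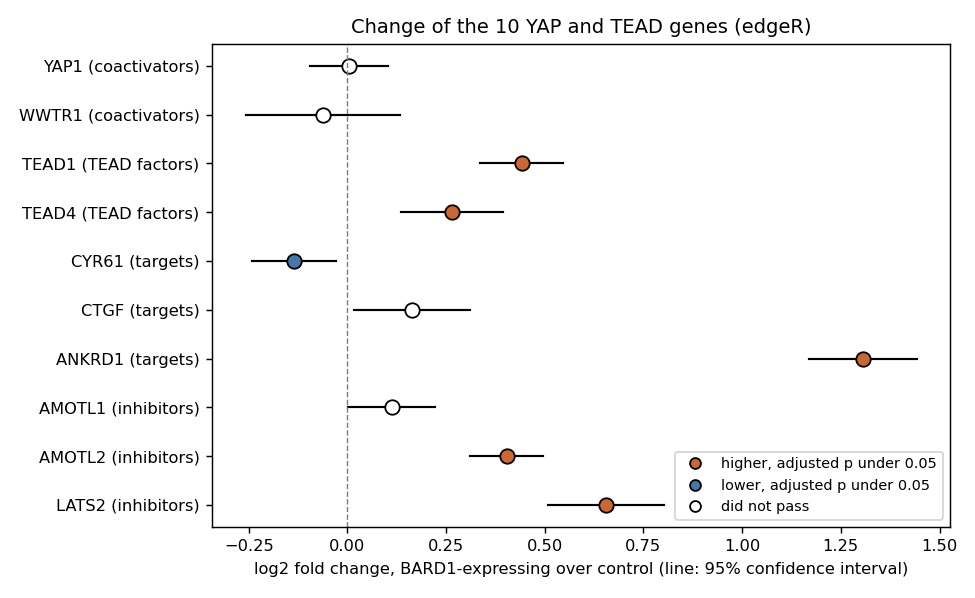
Log2 fold change of each of the 10 genes, BARD1-expressing over control cells (horizontal axis), with its 95% confidence interval as a line; filled points passed the test and white points did not. ANKRD1 stands at 1.31, LATS2, TEAD1, AMOTL2 and TEAD4 lie between 0.27 and 0.65, and CYR61 lies at -0.14.

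Libraries held 12744310 to 24349158 counted reads, the shallowest being BARD1-expressing 1. BARD1-expressing 1 and 3 (15147685) lay below every control library (21819199 to 23992482). BARD1 itself, which checks the labels, had 17.1, 17.2 and 19.4 CPM in the control libraries and 49.0, 44.3 and 45.7 CPM in the BARD1-expressing libraries. Every CPM value is scaled by TMM, a trimmed mean over genes that makes libraries comparable. In bulk RNA, fewer cells of a type and less RNA per cell cannot be told apart. Markers of cell types follow, of which those with reads were named after their values were seen.

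Of the 8 ovarian and epithelial markers, KRT19 and MUC16 had no read in any library and 6 were tested. Their summed level, most of it KRT8, was 3781 to 3846 CPM in control and 3743 to 3995 CPM in BARD1-expressing libraries, but single markers moved in opposite directions. PAX8, a transcription factor of the Müllerian lineage, fell from 143 ± 8.98 to 91.4 ± 6.09 CPM (SD, n = 3 each; edgeR adjusted p = 1.19e-08), and KRT7 rose from 842 ± 11.6 to 1066 ± 57.6 CPM (edgeR adjusted p = 6.95e-06). WT1, with at most 43 reads in a library, was called higher (log2 fold change 1.43 ± 0.47, edgeR adjusted p = 0.0246). That call was lost in 5 of 11 alternatives, among them those without control 1 (edgeR adjusted p = 0.0617), control 2 (0.0955) or BARD1-expressing 2 (0.555). EPCAM, KRT8 and KRT18 did not pass.

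Of 8 fibroblast and pericyte markers, 3 were tested, and 2 were higher and 1 lower, where 29.0% of all tested genes were called. Their median log2 fold change of 1.51 is that of PDGFRB alone. COL1A1, which makes up nearly all of their summed level (1015 to 1082 CPM in control and 839 to 887 CPM in BARD1-expressing libraries), fell by 0.32 on the log2 scale (edgeR adjusted p = 1.23e-05). PDGFRB, a receptor of pericytes, rose from 4.81 ± 0.634 to 13.7 ± 0.922 CPM (SD, n = 3 each; edgeR adjusted p = 2.24e-09), and LUM from 0.186 ± 0.0889 to 0.795 ± 0.266 CPM (edgeR adjusted p = 0.00527). DCN was at 0 in every library. The other untested markers had at most 1 (COL1A2), 2 (COL3A1), 4 (PDGFRA) and 7 (THY1) reads in a library. The sum of 6 endothelial markers, most of it TIE1, was 1.69 to 2.21 CPM in control and 5.27 to 7.52 CPM in BARD1-expressing libraries. TIE1 alone rose from 1.26 ± 0.136 to 4.52 ± 1.48 CPM (SD, n = 3 each). Both that were tested, TIE1 and KDR, were called higher, as were 16.5% of all tested genes. The call of KDR was lost in 4 of 11 alternatives, among them those without control 1 (edgeR adjusted p = 0.0628), control 2 (0.0599) or BARD1-expressing 3 (0.0848). CDH5 and TEK had at most 1 read in a library, PECAM1 at most 8 and VWF at most 9, and these were not tested. The sum of 5 leukocyte markers stayed at or below 0.995 CPM in every library. The part of these markers in the results was not tested.

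YAP1 (ENSG00000137693, chromosome 11, 102110461 to 102233423, plus strand; GRCh38 as for all positions here) had 355, 348 and 366 CPM in the control libraries and 370, 348 and 354 CPM in the BARD1-expressing libraries. The groups overlapped throughout. The log2 fold change was 0.0041 ± 0.048 (SE), with a 95% confidence interval from -0.096 to 0.10 (edgeR adjusted p = 0.963). WWTR1, the paralogous coactivator TAZ (ENSG00000018408, chromosome 3, 149517235 to 149736714, minus strand), had 20.9 to 24.6 CPM in control and 20.2 to 24.5 CPM in BARD1-expressing libraries. Its log2 fold change was -0.06 ± 0.095, with an interval from -0.26 to 0.13 (edgeR adjusted p = 0.677). Per kilobase of gene model, YAP1 made up 95.5% ± 0.466 of the reads of the pair in control cells and 95.6% ± 0.332 in BARD1-expressing cells (SD, n = 3 each).

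TEAD1 (ENSG00000187079, chromosome 11, 12674591 to 12944483, plus strand), a TEA domain factor through which YAP1 and TAZ reach DNA, had 236, 234 and 240 CPM in the control libraries. In the BARD1-expressing libraries it had 330, 301 and 334 CPM. The lowest BARD1-expressing library lay well above the highest control library. On the log2 scale it rose by 0.44 ± 0.051 (edgeR adjusted p = 3.45e-07). TEAD4 (ENSG00000197905, chromosome 12, 2959330 to 3040673, plus strand), its paralog, had 94.1, 90.2 and 88.2 CPM in control and 98.2, 117 and 111 CPM in BARD1-expressing libraries. The groups were separate, but by a narrow margin at BARD1-expressing 1. TEAD4 rose by 0.27 ± 0.063 on the log2 scale (edgeR adjusted p = 0.00220).

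The other TEAD paralogs did not pass. TEAD2 had a log2 fold change of 0.16 ± 0.10 (edgeR adjusted p = 0.270) and TEAD3, named outside the rule to complete the family, of -0.01 ± 0.072 (edgeR adjusted p = 0.914). Compared per kilobase of gene model (RPKM, CPM divided by gene length in kilobases), TEAD4 was the most abundant of the 4, with 40.0 ± 1.31 in control and 47.9 ± 4.28 in BARD1-expressing cells (SD, n = 3 each). TEAD1 followed with 23.0 ± 0.324 and 31.3 ± 1.78 RPKM. This order rests on the lengths of the gene models, 2272 bases for TEAD4 and 10279 for TEAD1. Before division by length TEAD1 was the higher, with 237 against 90.8 CPM in control cells and 322 against 109 CPM in BARD1-expressing cells. The shares of TEAD4 and TEAD1 in the family overlapped between the groups. The share of TEAD3 was 15.9% to 16.7% in control and 13.3% to 13.6% in BARD1-expressing libraries, and that of TEAD2 was 5.72% to 5.81% and 5.12% to 5.53%. The ratio of TEAD1 to YAP1 per kilobase, which does not depend on how libraries are scaled, was 0.407, 0.412 and 0.402 in control and 0.546, 0.530 and 0.578 in BARD1-expressing libraries.

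**Figure D2:**
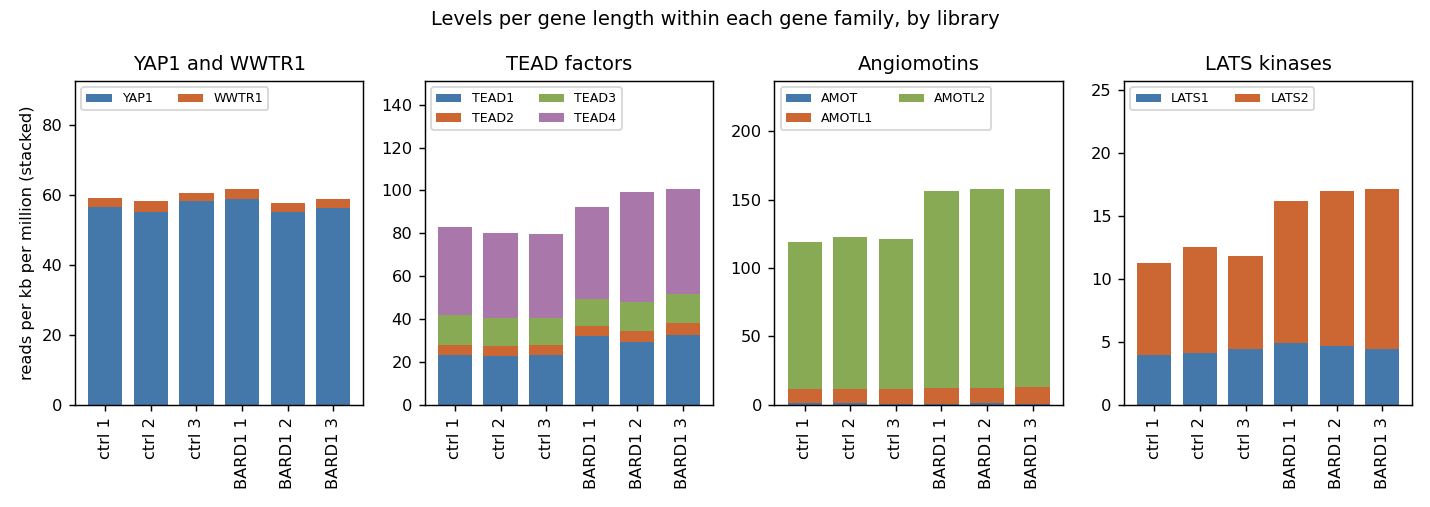
Stacked RPKM (vertical axis) in each of the 6 libraries (horizontal axis; ctrl, control) for 4 gene families. AMOTL2 holds 90.3% to 92.3% of the angiomotin level in every library, and the taller BARD1 bars of the LATS panel come mainly from LATS2.

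The 3 target genes differed from each other. ANKRD1 (ENSG00000148677, chromosome 10, 90912096 to 90921276, minus strand), which encodes a nuclear ankyrin repeat protein first known from cardiac muscle, had 293, 266 and 336 CPM in the control libraries. In the BARD1-expressing libraries it had 754, 730 and 732 CPM. Every BARD1-expressing library lay far above the highest control library. ANKRD1 rose by 1.31 ± 0.065 on the log2 scale (edgeR adjusted p = 2.33e-11), and by 1.23 to 1.40 with 1 library left out. By p, ANKRD1 stood at place 77 of the 15400 tested genes.

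CYR61 (ENSG00000142871, chromosome 1, 85580761 to 85583962, plus strand) encodes the secreted matricellular protein CCN1, which binds integrins and promotes vessel growth. It had 1635, 1588 and 1670 CPM in the control libraries and 1360, 1566 and 1525 CPM in the BARD1-expressing libraries. The groups did not overlap, but control 2 and BARD1-expressing 2 were close. Its log2 fold change was -0.14 ± 0.051, just past the threshold (edgeR adjusted p = 0.0498). Without BARD1-expressing 1, the lowest library, it was -0.083 (edgeR adjusted p = 0.202). The adjusted p ranged from 0.0148 to 0.202 over the 11 alternatives.

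CTGF (ENSG00000118523, chromosome 6, 131948176 to 131951373, minus strand) encodes the related protein CCN2, known for its part in matrix production and fibrosis. It had 118, 120 and 143 CPM in the control libraries and 150, 146 and 131 CPM in the BARD1-expressing libraries. Control 3 lay inside the range of the other group. The log2 fold change was 0.16 ± 0.070, with a 95% confidence interval from 0.017 to 0.31, and did not pass after adjustment (edgeR adjusted p = 0.0896). Without control 3 it was 0.25 and passed (edgeR adjusted p = 0.00425), and over all 11 alternatives the adjusted p ran from 0.00425 to 0.328.

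**Figure D3:**
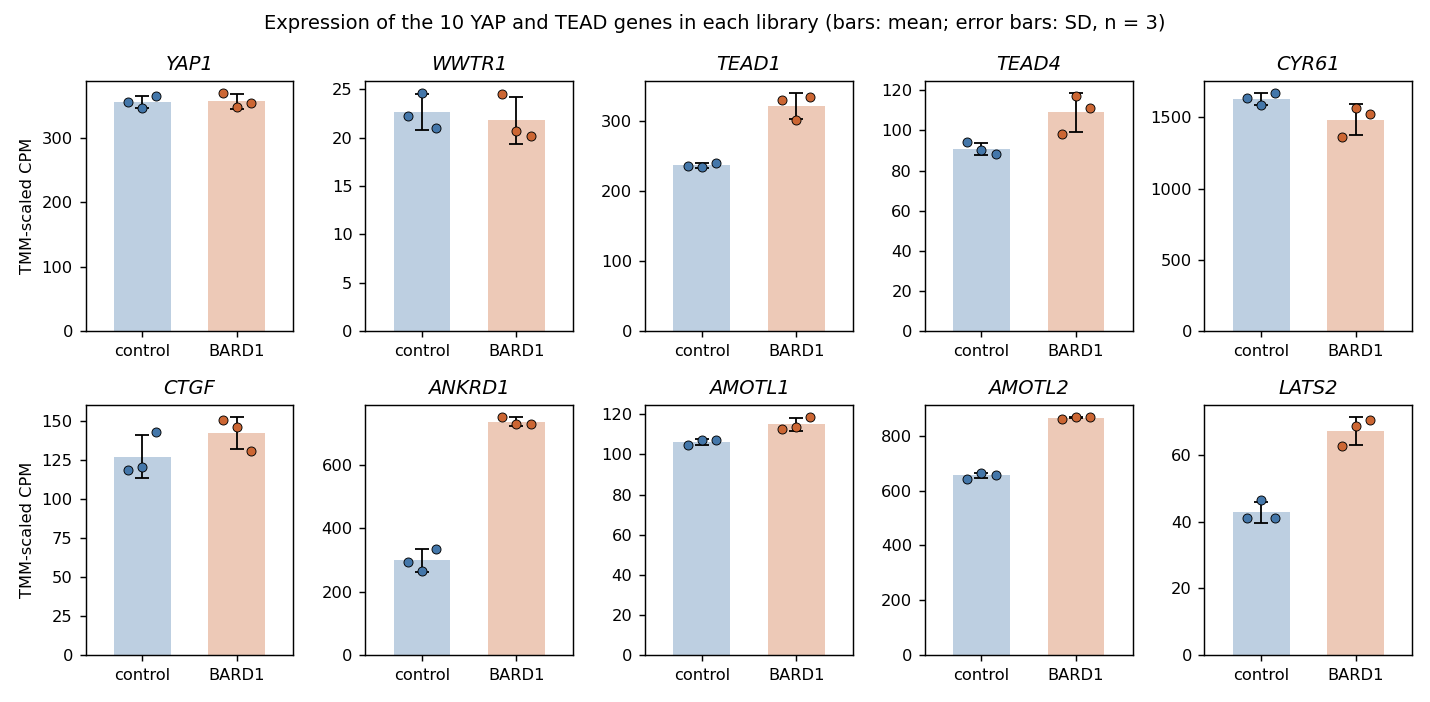
TMM-scaled CPM (vertical axes, from 0) of the 10 genes in 3 control (blue) and 3 BARD1-expressing libraries (orange); points are libraries, bars the group means and error bars the SD. The groups lie far apart for ANKRD1 (266 to 336 against 730 to 754 CPM) and AMOTL2, and overlap for YAP1, WWTR1 and CTGF.

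Within libraries, the level of ANKRD1 per kilobase was 0.223, 0.208 and 0.250 times that of CYR61 in the control libraries and 0.687, 0.578 and 0.596 times in the BARD1-expressing libraries. The ratio to CTGF was 2.93, 2.62 and 2.78 in control and 5.92, 5.91 and 6.62 in BARD1-expressing libraries. ANKRD1 thus rose 2.73-fold relative to CYR61 and 2.21-fold relative to CTGF, on the mean log2 scale. For these ratios and 5 others an exact two-sided permutation test over the libraries gave p = 0.1 each, also after Benjamini-Hochberg adjustment over the 7. That is the smallest p that 3 against 3 libraries can give. Most of the 7 ratios set a member called higher over a gene not called higher, and several share a gene. Their separation therefore largely follows from those calls, and they are not 7 separate results.

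Promoter stretches with the TEAD sequence are shown because ANKRD1, which passed the test, and CTGF, which did not, both hold more than 1 copy of it before their start sites. They are RefSeq promoters (GRCh38.p14), read 5′ to 3′ on the strand of the gene. Positions count from the start site, -1 being the base before it. Capitals mark GGAATG (or CATTCC, the same site on the other strand) and TGANTCA, found in ANKRD1 alone of these. TGANTCA, where N is any base, is a loose form of the AP-1 sequence.
CTGF, -200 to -51 (chr6:131951423-131951572, minus strand): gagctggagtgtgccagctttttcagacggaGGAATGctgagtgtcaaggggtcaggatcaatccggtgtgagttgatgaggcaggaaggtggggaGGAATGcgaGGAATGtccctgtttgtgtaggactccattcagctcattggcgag
ANKRD1, -250 to -189 (chr10:90921276-90921337, minus strand): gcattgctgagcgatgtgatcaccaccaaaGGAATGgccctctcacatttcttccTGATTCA
ANKRD1, -140 to -111 (chr10:90921198-90921227, minus strand): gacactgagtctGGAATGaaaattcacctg
YAP1, -174 to -145 (chr11:102110273-102110302, plus strand): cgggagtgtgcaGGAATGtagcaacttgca
AMOTL2, -81 to -52 (chr3:134374499-134374528, minus strand): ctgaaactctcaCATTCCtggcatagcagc

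Promoters were found for 7 of the 10 genes, with 9 start sites in all. In the 250 bases before the start, searched on both strands, CTGF held GGAATG at -169, -104 and -95, ANKRD1 at -220 and -128, YAP1 at -162 and AMOTL2, on the other strand, at -69 of 1 of its 2 starts. WWTR1, AMOTL1 and LATS2 had no such letters in these windows. The sequence was present in 11.9% of 35116 RefSeq windows of the same length, and 0.94% held at least 2 copies. TGANTCA was present in 6.57% of the windows and, among these members, in ANKRD1 at -195 as TGATTCA. It does not overlap GGAATG there. The deposited models of ANKRD1, AMOTL2, WWTR1 and AMOTL1 begin upstream of these RefSeq starts. The windows of WWTR1 and AMOTL1 lie wholly inside those models. The bases before these 2 models begin were not searched. In GENCODE the -128 site of ANKRD1 lies in an exon and UTR of its 1 transcript. The AMOTL2 site lies inside 5 of 13 transcripts, in an exon of 3 and a UTR of 1. The other printed GGAATG sites lie in no transcript of their gene. These matches describe letters, not binding.

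LATS2 (ENSG00000150457, chromosome 13, 20973032 to 21061547, minus strand), the kinase that phosphorylates YAP1 and TAZ, had 41.0, 46.6 and 41.0 CPM in the control libraries and 62.7, 68.8 and 70.7 CPM in the BARD1-expressing libraries. The groups were well separated. LATS2 rose by 0.65 ± 0.071 on the log2 scale (edgeR adjusted p = 1.21e-07). Its paralog LATS1, named outside the rule, had 36.0 ± 2.28 and 40.3 ± 1.98 CPM (SD, n = 3 each) and did not pass (log2 fold change 0.16 ± 0.074, edgeR adjusted p = 0.106). Per kilobase, LATS2 made up 62.3% to 66.9% of the LATS level in control and 69.6% to 74.0% in BARD1-expressing libraries, without overlap.

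AMOTL2 (ENSG00000114019, chromosome 3, 134355874 to 134375479, minus strand) is an angiomotin-like protein of cell junctions that binds YAP1. It had 644, 663 and 658 CPM in the control libraries and 863, 868 and 868 CPM in the BARD1-expressing libraries. The libraries of each group lay close together and the groups far apart. AMOTL2 rose by 0.40 ± 0.045 on the log2 scale (edgeR adjusted p = 1.96e-07), with an interval from 0.31 to 0.50. AMOTL1 (ENSG00000166025, chromosome 11, 94706431 to 94876753, plus strand), which also binds YAP1, had 105 to 107 CPM in control and 112 to 119 CPM in BARD1-expressing libraries. These ranges did not overlap, but the log2 fold change of 0.11 ± 0.053 did not pass (edgeR adjusted p = 0.122). AMOT, the founding member and also named outside the rule, had 8.11 ± 1.41 and 7.37 ± 0.485 CPM (SD, n = 3 each) and did not pass (log2 fold change -0.13 ± 0.14, edgeR adjusted p = 0.533). The ratio of AMOTL2 to AMOTL1 per kilobase was 10.3 to 10.4 in control and 12.3 to 12.9 in BARD1-expressing libraries.

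Set in order of level per kilobase, CYR61 led in both groups, with 664 ± 16.8 RPKM in control and 604 ± 44.4 RPKM in BARD1-expressing cells (SD, n = 3 each). ANKRD1 was next (151 ± 17.8 and 373 ± 6.76 RPKM), then AMOTL2 (109 ± 1.69 and 145 ± 0.548 RPKM). YAP1 (56.6 ± 1.47 and 56.8 ± 1.84 RPKM) and CTGF (54.3 ± 5.82 and 60.9 ± 4.43 RPKM) overlapped in both groups and cannot be ordered beyond their spread. TEAD4 and TEAD1 came below them. AMOTL1 (10.6 ± 0.153 RPKM) stood above LATS2 (7.69 ± 0.577 RPKM) in control cells. In BARD1-expressing cells they overlapped, at 11.5 ± 0.341 and 12.1 ± 0.755 RPKM. WWTR1 was lowest, with 2.69 ± 0.221 and 2.59 ± 0.285 RPKM.

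The members lie on 7 chromosomes, and their changes were compared with those of the 5 nearest tested protein-coding genes on each side. The median log2 fold change of these 10 neighbours ran from -0.20 around TEAD1 to 0.11 around TEAD4. Around ANKRD1 it was 0.09, with 3 neighbours higher and 1 lower. Around LATS2 it was 0.0099, with 1 higher, and single neighbours there ran from -0.18 to 1.39. Around AMOTL2 the median was -0.0020, with 3 lower and none higher. Neighbours higher and lower were 2 and 5 around TEAD1, 2 and 3 around WWTR1, and 1 and 4 around CTGF. They were 1 and 2 around YAP1 and around CYR61, and 2 and 0 around TEAD4 and around AMOTL1. Of all tested genes, 29.0% were called. For 5 members an exon overlaps that of another annotated gene, on the same strand only for AMOTL2 (187 bases shared with RPL39P5). Since the labels name both directional and non-directional libraries, reads of antisense pairs may not be separated. None of those overlapping genes had more than 7 reads in any library. How reads in shared exons were counted is not given, so this does not show that counts of the members are unaffected.

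A published set of YAP and TAZ target genes from tumours moved in both directions. Without the members it holds 17 genes, all tested, of which 8 were higher, 4 were lower and 5 did not pass, with a median log2 fold change of 0.18. That is 70.6% called, against 29.0% of all tested genes and 34.1% of protein-coding genes at 20 CPM or more. NT5E, the ecto-nucleotidase CD73, rose from 297 ± 21.2 to 579 ± 39.6 CPM, and CRIM1, a transmembrane protein with cysteine-rich repeats, from 324 ± 15.9 to 460 ± 29.1 CPM (SD, n = 3 each). IGFBP3, which binds insulin-like growth factors, fell from 523 ± 31.0 to 276 ± 12.7 CPM, and CCDC80, a secreted matrix protein, from 467 ± 22.6 to 295 ± 4.72 CPM. Those are the 4 with the smallest p. The other 2 that fell, named after their values were seen, were F3 (tissue factor, log2 fold change -0.45 ± 0.055) and TGFB2 (-0.39 ± 0.13). The call of TGFB2 was lost with DESeq2 (adjusted p = 0.0939), without control 2 (edgeR adjusted p = 0.114) and without BARD1-expressing 2 (0.125). FOXF2, also named afterwards, was counted 1, 4 and 0 times in control cells and 17, 48 and 19 times in BARD1-expressing cells, so the size of its rise is poorly defined.

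**Figure D4:**
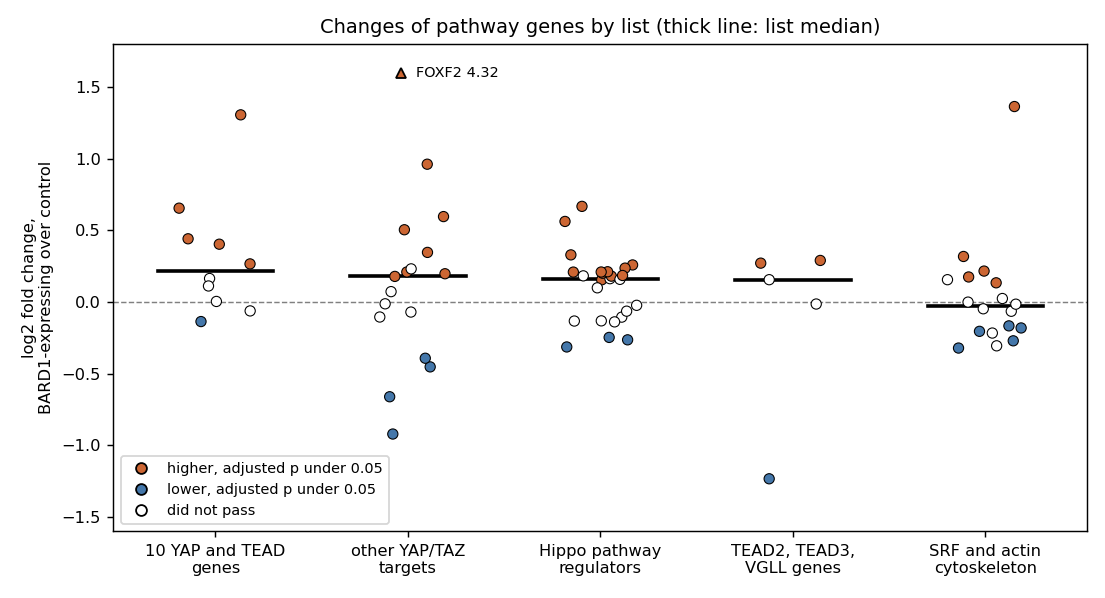
Log2 fold change, BARD1-expressing over control (vertical axis), of each tested gene in 5 gene lists (horizontal axis; sideways spread only separates the points), with thick lines at the list medians; the triangle marks FOXF2, which lies beyond the axis at 4.32. The list medians lie between -0.03 and 0.22, and every list holds genes called in both directions.

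Among 25 other regulators of YAP1 and TAZ, all tested, 12 were higher, 3 were lower and 10 did not pass, with a median log2 fold change of 0.16. That is 60.0% called, against 29.0% of all tested genes and 34.1% of protein-coding genes at 20 CPM or more. PTPN14, named after its value was seen, was called higher and stands both here and among the 17 targets. WWC3 rose from 21.3 ± 1.68 to 31.4 ± 1.93 CPM and the giant cadherin gene FAT4 from 6.03 ± 0.898 to 9.50 ± 1.26 CPM (SD, n = 3 each). FRMD6 fell from 329 ± 15.8 to 274 ± 13.6 CPM, and WWC1 (KIBRA), of the same family as WWC3, from 211 ± 6.33 to 178 ± 1.40 CPM. WWC2 of that family, named after its value was seen, rose by 0.26 ± 0.065 on the log2 scale (edgeR adjusted p = 0.00365). The third that fell was the kinase gene TAOK3 (log2 fold change -0.31 ± 0.094; without BARD1-expressing 2, edgeR adjusted p = 0.0817), named after its value was seen. Within the core cascade the scaffold genes MOB1A (0.15 ± 0.056) and MOB1B (0.33 ± 0.076) were called higher, while the kinases STK3 (0.18 ± 0.079) and STK4 (-0.13 ± 0.057) and their scaffold SAV1 (-0.02 ± 0.057) did not pass. These, too, were named afterwards. The call of MOB1A was lost in 8 of 11 alternatives (adjusted p 0.0165 to 0.191), and STK3 passed without control 3 (edgeR adjusted p = 0.0322) or BARD1-expressing 2 (0.0396), as STK4 did without BARD1-expressing 1 (0.0116). The number higher was 7 without control 1, control 2 or BARD1-expressing 3.

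Of the TEAD paralogs and the VGLL cofactors, which compete for or share the TEAD surface, 5 of 6 were tested and VGLL1 had no read in any library. VGLL3 rose from 56.0 ± 2.49 to 67.6 ± 5.12 CPM and VGLL4, known as an antagonist of YAP1, by 0.29 ± 0.091 on the log2 scale (CPM with SD, n = 3 each). VGLL2 passed downwards, with 1.01 to 1.82 CPM in control and 0.332 to 0.944 CPM in BARD1-expressing libraries. The calls of VGLL4 (without control 3, edgeR adjusted p = 0.0784, or BARD1-expressing 3, 0.117) and VGLL2 (without control 1, 0.0865, BARD1-expressing 2, 0.0513, or BARD1-expressing 3, 0.0848) depended on single libraries.

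CYR61, CTGF and ANKRD1 can also respond to SRF, a factor that reads the actin state of the cell. Of 18 genes of SRF and the actin cytoskeleton, all tested, 5 were higher, 5 were lower and 8 did not pass, with a median log2 fold change of -0.03. That is 55.6% called, against 29.0% of all tested genes and 34.1% of protein-coding genes at 20 CPM or more. TPM1 (tropomyosin) rose from 388 ± 9.46 to 484 ± 22.7 CPM and MYH9 (non-muscle myosin) from 1335 ± 17.4 to 1550 ± 89.7 CPM (SD, n = 3 each). TGFB1I1 (Hic-5) fell from 64.3 ± 2.30 to 51.4 ± 4.56 CPM. The myosin light chain gene MYL12A, on chromosome 18 (3247481 to 3256236), fell from 266 ± 7.75 to 231 ± 3.26 CPM. Neighbours were compared for the members only, so a change of the region around MYL12A was not tested. Named afterwards, the others that passed were ACTA2, FHL2 and MYL9 upwards, and ZYX, FLNA and SRF itself (-0.27 ± 0.074) downwards. Of 11 alternatives each, the call was lost in 6 for ACTA2, 6 for FHL2, 8 for MYL9 and 3 for FLNA, in each case also with single libraries left out. The number higher was 2 without control 2 or BARD1-expressing 3.

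Since ANKRD1 had the smallest p of the members, the genes most like it over the 6 libraries were sought among tested protein-coding genes, by the root mean square difference of centred log2(CPM + 1). They were DCAF12L1 (0.0305), the amino acid transporter SLC38A3 (0.0458) and the cystine transporter SLC7A11 (0.0545). The added 1 CPM shrinks changes of low genes on this scale, and SLC38A3 rose from 0.675 ± 0.216 to only 3.06 ± 0.107 CPM (SD, n = 3 each). DCAF12L1 was low as well, at 2.93 ± 0.399 and 8.37 ± 0.118 CPM, with an edgeR log2 fold change of 1.51 against 1.31 for ANKRD1. SLC7A11 rose from 40.3 ± 4.39 to 102 ± 2.71 CPM.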

How the data were processed

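The authors deposited unscaled counts of reads per gene, with gene positions and lengths (equal to GENCODE 29 for all 10 members). The tools named in the submitters' processing notes are featureCounts 1.5.0-p3, HISAT2 2.0.5 and DESeq2 1.20.0, with GRCh38 (hg38); roles, options and strand setting are not given in the sources used here. Gene lengths are other values deposited by the authors. Columns were matched to samples by the descriptions in the labels.

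The test was run with edgeR 4.0.16 in R 4.3.3: filterByExpr, TMM scaling, and the robust quasi-likelihood F test on group alone, with 4 residual degrees of freedom, fitted on 15400 genes and adjusted over all of them. A call is an adjusted p under 0.05, and intervals are 95%. Fold changes set BARD1-expressing over control cells. RPKM were computed from TMM-scaled CPM and gene length. A count of 0 allows up to 3 counts, 0.123 to 0.235 CPM, for counting error only. Libraries of a group differed by more than sampling noise in every pair (chi-square per degree of freedom 3.41 to 8.11), so none was counted as a library deposited again; this does not show that they are separate cultures. The pipeline was run on simulated counts drawn from means and dispersions fitted to these same libraries. That run cannot show how it handles variation outside the fitted model.

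The members and lists were chosen with earlier results of these data known. Named genes are the 10 members, BARD1, the 4 genes of each pathway list with the smallest p, and 3 genes most like the member with the smallest p; genes named outside this rule are marked where they stand. Alternatives were DESeq2 1.42.0, DESeq2 size factors in edgeR, TMM without chromosome 18 and mitochondrial genes, no low-count filter, a replicate block and leaving out each library.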

Additional observations from a re-analysis of the deposited data

How the results depend on the processing

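Over 11 alternatives the 5 members called higher kept direction and call each time (ANKRD1 1.23 to 1.40, LATS2 0.62 to 0.71, TEAD1 0.41 to 0.49, AMOTL2 0.38 to 0.41, TEAD4 0.20 to 0.33), and the number higher was 5 to 6 with 1 library left out. The number of members lower fell from 1 to 0 with the replicate block and with DESeq2, and was 0 to 1 with 1 library left out. The log2 fold change of YAP1, which never passed, was -0.0014 with DESeq2 size factors in edgeR, -0.0045 with TMM from genes outside chromosome 18 and the mitochondrial genome, -0.0096 without the low-count filter, -0.00032 with DESeq2, and -0.027 to 0.023 with 1 library left out. With 1 library left out, 3 other genes that never passed also changed sign: AMOT (-0.24 to 0.0046), TEAD3 (-0.048 to 0.021) and SAV1 (-0.072 to 0.0075). The number of SRF and cytoskeleton genes higher, 5, was 3 with that TMM, without the filter, with the replicate block and with DESeq2, and 2 to 6 with 1 library left out. With DESeq2, 1 TEAD paralog or VGLL gene was higher and 0 lower, and with 1 library left out 1 to 2 were higher and 0 to 1 lower. Of the other regulators, 7 to 12 were higher with 1 library left out. The cause of these differences was not tested.

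The labels do not say whether libraries of the same replicate number were made together. Deviations of same-numbered libraries from their group means correlated at -0.34, -0.03 and -0.05 over 10847 genes. No library correlated best with its own number. With only 3 libraries per group, such correlations cannot settle whether same-numbered libraries belong together. Across numbers, control 1 with BARD1-expressing 2 gave 0.33, and control 3 gave 0.32 with BARD1-expressing 1 and -0.31 with BARD1-expressing 2. Control 1 and BARD1-expressing 2 were the deepest of their groups, and control 3 and BARD1-expressing 1 the shallowest. A part of depth in this was not tested. With the replicate block 2296 genes were higher and 1694 lower, against 2545 and 1915.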
